A study of Mus musculus with 6 samples.

Results

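The genes described here are 40 mouse genes of glycolysis and of the transcriptional response to low oxygen, listed by name and followed in J1 mouse embryonic stem cells with and without SB431542. Members were the probes that are not controls and whose RefSeq accession on the array maps to a listed gene. All 40 genes had at least 1 probe, 66 probes in all, out of 20645 named genes and 55600 probes. J1 is a single established line from a 129S4/SvJae mouse. Its cells grew without feeders on gelatin, in Knockout DMEM with 15% serum replacement and 1000 U/ml of the cytokine LIF. One group received 3 µM SB431542 for 24 h (3 arrays) and the other received DMSO for 24 h (3 arrays). SB431542 blocks the kinases ALK4, ALK5 and ALK7, the receptors through which activin, Nodal and TGF-beta act. The oxygen level of the cultures and the concentration of DMSO are not given in the labels. Whether replicates were separate cultures is not stated in the labels. The p-values therefore rest on the scatter among these 6 samples alone, and that scatter may be technical.

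Glycolysis turns glucose into pyruvate, and lactate dehydrogenase turns pyruvate into lactate, which leaves the cell through monocarboxylate transporters. Mouse embryonic stem cells draw much of their energy and many building blocks from this route. Hypoxia-inducible factors (HIFs) are transcription factors whose alpha subunits are hydroxylated by oxygen-dependent prolyl hydroxylases and then degraded, so that they accumulate when oxygen is low. Many glycolytic genes are also HIF targets, and HIF control acts largely on the protein, which arrays do not measure.

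Signals are given as log2 of the processed signal minus the log2 of the 75th percentile of the same array, so that 0 is the level of that percentile. Changes are SB431542 minus DMSO on this scale, with the standard error from limma. "Rose" and "fell" are used of genes with a limma adjusted p under 0.05 over all 25899 features. Where a gene had several probes, the brightest stood for it. The 39 members tested were well above background on all 6 arrays, so that no member was kept through 1 group alone. Mxi1, a Max-interacting repressor, was well above background on 0 DMSO arrays and 1 SB431542 array and was not tested. The inhibitor's action was visible in the Nodal feedback antagonists Lefty1 (log2 change -9.43 ± 0.20, adjusted p = 3.18e-05) and Lefty2 (-4.85 ± 0.10, adjusted p = 3.18e-05), both of which fell. Lefty1 was well above background on 2 of the 3 SB431542 arrays, so the size of its fall is uncertain.

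Slide and scan separated 1 array from the others, since SB431542 replicate 3 lay on slide 2 with its own scan, while the other 5 arrays shared slide 1. On slide 1 the DMSO arrays lay in another row than the SB431542 arrays, so row and group cannot be told apart there. Array brightness, taken as that 75th percentile, lay between 453 and 565, and no spot was saturated. All 10 embryonic stem cell markers (among them Pou5f1, Sox2 and Nanog) were well above background on all 6 arrays. Of these, 4 fell, namely Dppa5a, Utf1, Fgf4 and Tdgf1. For this and the marker counts below, 7.38% of all features fell and 5.19% rose. The sums given here weigh the brightest markers of a list most. The summed linear level of the 10 stem cell markers ran from 685 to 709.5 times the array's 75th percentile under DMSO. Under SB431542 it ran from 508 to 561. Of 10 fibroblast markers, 6 were well above background on every array and Lum and Postn on none. Of the fibroblast markers 1 rose (Pdgfra) and 2 fell (Col1a2 and Dcn), and the sum of the 10 ran from 137 to 144 under DMSO and from 153 to 159 under SB431542. Of 7 trophoblast markers, 2 rose (Gata3 and Tfap2c), and Elf5 and Hand1 were not well above background on any array. Their sum ran from 11.9 to 12.6 under DMSO and from 26.9 to 27.4 under SB431542. Of 5 neuroectoderm markers, 3 fell, with Neurog2 not well above background on any array and a sum of 4.32 to 4.44 under DMSO and 3.03 to 3.34 under SB431542. Of 7 primitive endoderm markers 1 rose, again Pdgfra, with a sum of 1.02 to 1.09 under DMSO and 1.03 to 1.18 under SB431542. Of 6 mesendoderm markers 1 fell, with Mixl1 not well above background on any array and a sum of 1.299 to 1.36 against 1.14 to 1.22. The part of these shifts in the results below was not tested, and in bulk RNA fewer cells of a type and less RNA per cell cannot be told apart.

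Most members changed little, and those that passed the test moved in both directions. Of the 39 tested, 6 fell, namely Car9, Slc16a3, Egln3, Bnip3, Pfkl and Pgk1, beside 7.38% of all features that fell. A further 4 rose, namely Ldhb, Eno2, Pdk1 and Pfkm, beside 5.19% of all features that rose. As shares of the members these are 15.4% and 10.3%. The median change of the members was -0.11, against 0.02 over all features tested, and 28 of the 39 changes lay below 0. The 3 SB431542 arrays all lay below the 3 DMSO arrays for 18 members (46.2%, beside 17.3% of all features) and all above them for 7 (17.9%, beside 18.6%). Without the adjustment, 14 members had a p under 0.05 downward and 7 upward (35.9% and 17.9%, beside 14.0% and 13.6% of all features). The counts depended on single arrays, with 3 members falling without DMSO replicate 2 and 2 without DMSO replicate 3, and on the variance model, with 11 falling and 6 rising when the prior variance followed the signal level. The counts over all 25899 features moved too. In the main fit 1912 features fell and 1345 rose. Those that fell numbered 925 and 972 without these arrays. With that variance model 2276 features fell and 1850 rose.

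**Figure D1:**
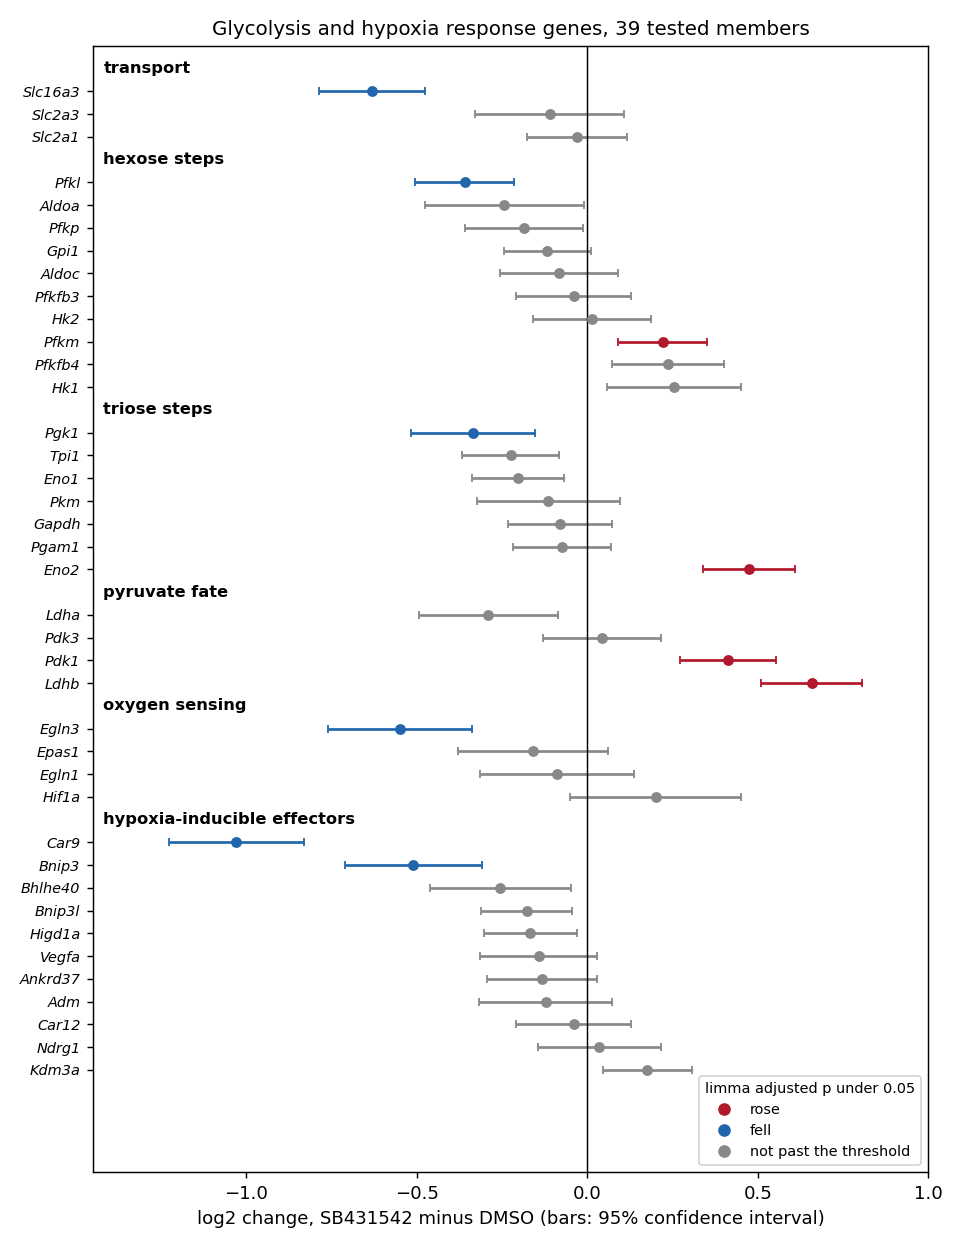
Log2 change (x axis, SB431542 minus DMSO) of the 39 tested members, grouped by role and ordered within each group, with 95% confidence intervals from limma and 3 arrays per group. Blue and red mark the 6 members that fell and the 4 that rose, from Car9 at -1.03 to Ldhb at 0.66, and the 29 grey intervals reach no lower than -0.49 and no higher than 0.45.

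The members are bright compared with the array as a whole, and 27 of the 39 lay among the 6475 brightest features. Over these features the median change was 0.0049, and over its 27 members -0.12. Over the brightest 5% of features, 1295 in number, the median change was -0.03, while 1.78% fell and 0.541% rose. The 13 members among them had a median of -0.17. This grouping by brightness was chosen after the values were seen.

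The deepest fall was that of Car9, a cell-surface carbonic anhydrase that acidifies the cell's surroundings and is a widely used marker of HIF activity. Its log2 signal was -1.79, -1.60 and -1.58 on the DMSO arrays and -2.61, -2.76 and -2.67 on the SB431542 arrays. Every SB431542 array lay below every DMSO array, and the change of -1.03 ± 0.08 (adjusted p = 0.00139) left 49.0% of the DMSO level. Under normexp background correction with quantile normalization the change was -0.67 (adjusted p = 0.000112). Slc16a3 encodes the monocarboxylate transporter through which glycolytic cells export lactate. It read 5.23, 5.40 and 5.32 with DMSO against 4.66, 4.73 and 4.66 with SB431542. The groups were apart by more than either's spread, with a change of -0.63 ± 0.06 (adjusted p = 0.00320). Its 2 probes gave -0.63 each, and both fell when every probe was tested on its own, a test in which 6.49% of the 36184 probes fell and 4.31% rose.

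Egln3 encodes a HIF prolyl hydroxylase that is itself HIF-inducible and so forms a feedback loop. Its signal was 1.89, 1.94 and 1.95 with DMSO and 1.27, 1.31 and 1.55 with SB431542. The SB431542 array nearest to DMSO was replicate 3, the one on slide 2, and the change was -0.55 ± 0.09 (adjusted p = 0.0127). On slide 1 alone, that is without this array, it was -0.64. Leaving out DMSO replicate 2 gave an adjusted p of 0.0595, and leaving out DMSO replicate 3 gave 0.0589. The second Egln3 probe fell by 0.52 on the log2 scale. Bnip3, a mitochondrial outer-membrane protein that recruits the autophagy machinery in low oxygen, read 6.35, 6.50 and 6.52 against 5.97, 6.05 and 5.83. It fell by 0.51 on the log2 scale (SE 0.08, adjusted p = 0.0140), with adjusted p of 0.0663 and 0.0632 without DMSO replicates 2 and 3. Its 3 probes ran from -0.51 to -0.31, and 2 of them passed the test on their own.

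The other 2 members that fell are glycolytic enzymes. Pfkl, the liver-type subunit of phosphofructokinase, which commits sugar to glycolysis, read 2.65, 2.56 and 2.69 with DMSO and 2.25, 2.24 and 2.33 with SB431542. The groups did not overlap, and the change was -0.36 ± 0.06 (adjusted p = 0.0151). It missed the threshold without DMSO replicates 1 and 3 (adjusted p = 0.0660 and 0.0694) and without SB431542 replicates 1 and 2 (0.05004 and 0.0516). Pgk1, the phosphoglycerate kinase that yields ATP, read 7.36, 7.39 and 7.58 with DMSO and 7.08, 7.14 and 7.11 with SB431542. Its highest DMSO array was replicate 3, and its change was -0.34 ± 0.07 (adjusted p = 0.0381). With any 1 of the 6 arrays left out, its adjusted p lay between 0.0701 and 0.101, while the change stayed between -0.38 and -0.27.

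**Figure D2:**
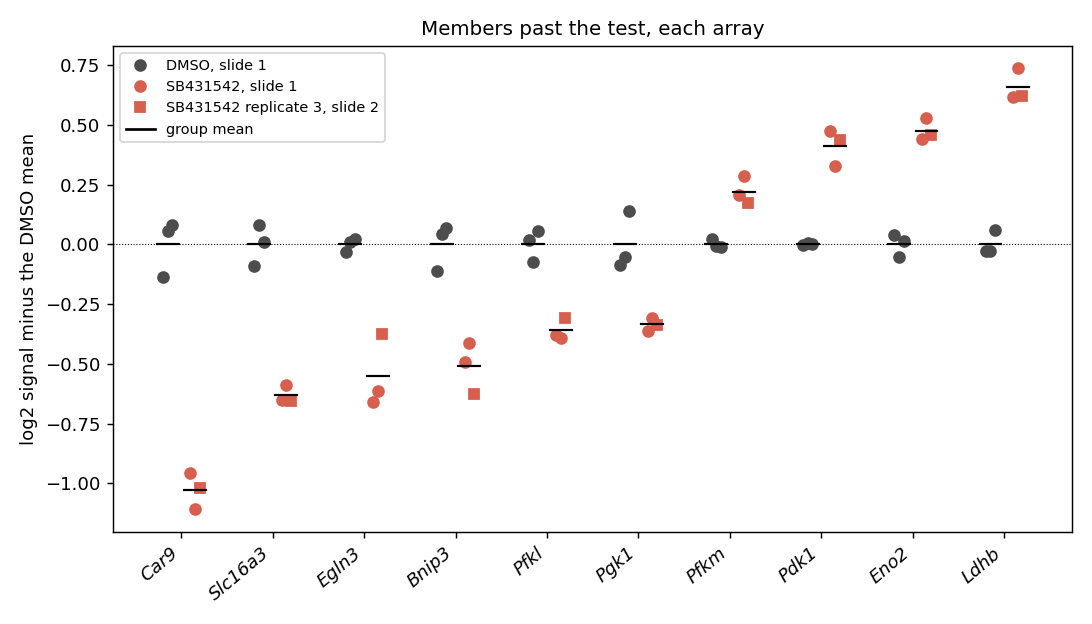
Log2 signal of each array minus the mean of the DMSO arrays (y axis) for the 10 members past the test, with DMSO in grey and SB431542 in red, squares for the array on slide 2 and a line at each group mean. For all 10 genes, which were picked by their change on these same arrays, the 3 SB431542 arrays lie on 1 side of the 3 DMSO arrays. The square is the SB431542 array nearest to DMSO for Egln3, Pfkl and Pfkm and the farthest from it for Slc16a3 and Bnip3.

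HIF binds the short core ACGTG, or its variant GCGTG, in hypoxia response elements, and the RefSeq promoter windows of the members were searched for both on both strands. A window runs from 250 bases before to 50 bases after the start of a gene on GRCm38.p6, and 35 of the 40 members had one, with the window listed first taken where there were several. ACGTG or GCGTG was present in 26 of the 35 windows (74.3%), against 43.8% of the 27025 genes with a window. ACGTG alone was present in 18 members' windows (51.4%, against 19.7% of all). The members' windows were richer in G and C, with a median of 59.2% over the 250 bases before the start against 52.0% over all genes, and in CG dinucleotides, which both cores contain (median 14 against 6). All 6 members that fell held a core in the 250 bases before the start, 5 of them ACGTG. So did 3 of the 4 that rose, among them Pfkm with 2 matches of ACGTG in a CACGTG palindrome and Pdk1 with a GCGTG. Of the 24 tested members with a window that did not pass the test, 17 held a core there, 9 of them ACGTG. Over all genes, 38.6% held a core in these 250 bases and 16.6% held ACGTG. A match is a string of letters and not a shown binding site. Shown first are the 250 bases before the start of 5 members, written 5′ to 3′ on the gene's strand, with every match in capitals. They are the falling members whose window holds ACGTG, since Pfkl holds only GCGTG. Capitals read ACGTG or GCGTG on the strand shown, or CACGT or CACGC where the match is on the other strand, and the palindrome CACGTG holds ACGTG on both.
Car9 (chr4:43506776-43507025, plus strand): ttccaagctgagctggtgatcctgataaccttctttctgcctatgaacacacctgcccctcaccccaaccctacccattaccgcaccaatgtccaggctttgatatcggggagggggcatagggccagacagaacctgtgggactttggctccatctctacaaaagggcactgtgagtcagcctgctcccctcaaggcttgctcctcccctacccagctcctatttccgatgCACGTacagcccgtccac
Slc16a3 (chr11:120948817-120949066, plus strand): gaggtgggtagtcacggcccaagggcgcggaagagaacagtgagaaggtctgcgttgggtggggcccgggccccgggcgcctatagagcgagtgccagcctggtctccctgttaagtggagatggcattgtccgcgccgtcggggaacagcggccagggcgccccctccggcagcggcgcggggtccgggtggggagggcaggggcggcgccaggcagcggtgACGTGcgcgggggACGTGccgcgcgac
Egln3 (chr12:54203875-54204124, minus strand): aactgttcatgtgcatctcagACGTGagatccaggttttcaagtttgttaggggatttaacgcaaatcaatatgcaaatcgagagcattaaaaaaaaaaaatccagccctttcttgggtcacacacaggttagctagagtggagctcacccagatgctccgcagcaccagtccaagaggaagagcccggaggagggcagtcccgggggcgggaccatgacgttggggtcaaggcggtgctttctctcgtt
Bnip3 (chr7:138909507-138909756, minus strand): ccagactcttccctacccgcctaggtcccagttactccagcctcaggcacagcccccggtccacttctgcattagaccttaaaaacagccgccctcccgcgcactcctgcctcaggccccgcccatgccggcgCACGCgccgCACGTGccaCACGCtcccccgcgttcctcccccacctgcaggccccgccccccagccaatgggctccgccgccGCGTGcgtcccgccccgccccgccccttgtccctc
Pgk1 (chrX:106186850-106187099, plus strand): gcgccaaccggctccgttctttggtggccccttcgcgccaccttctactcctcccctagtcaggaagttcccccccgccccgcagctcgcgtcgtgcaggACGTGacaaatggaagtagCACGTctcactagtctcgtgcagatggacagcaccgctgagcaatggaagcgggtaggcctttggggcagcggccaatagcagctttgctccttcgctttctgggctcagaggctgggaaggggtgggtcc

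The match of Car9 begins 18 bases before the annotated start and the nearer one of Slc16a3 14 bases before it. That of Egln3 lies near the far end of the window, 229 bases before the start. Bnip3 carries the most matches of these 5, including 1 CACGTG, which is also an E-box.

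Of the 2 lactate dehydrogenase subunits, Ldhb rose and Ldha did not pass the test. Ldhb, whose tetramers favour the conversion of lactate to pyruvate, read 5.51, 5.50 and 5.59 with DMSO and 6.15, 6.27 and 6.15 with SB431542. It had the largest rise among the members, 0.66 ± 0.06 (adjusted p = 0.00240), 1.58 times the DMSO level. Ldha, whose tetramers favour lactate formation and which is a well-known HIF target, read 8.67, 8.83 and 8.79 with DMSO and 8.51, 8.57 and 8.34 with SB431542. All 3 SB431542 arrays lay below the DMSO arrays, but the change of -0.29 ± 0.08 missed the threshold (adjusted p = 0.0782). Ldha passed it under quantile normalization (0.0418), in the authors' deposited values (0.0357) and under normexp (0.0192). Of its 3 probes, with changes from -0.34 to -0.29, 1 fell when every probe was tested on its own. The log2 ratio of Ldhb to Ldha within an array was higher with SB431542 by 0.95, or 1.93-fold.

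The within-array ratios of paired enzyme forms of 3 other steps are given as a description. The ratio of Eno2 to Eno1 was higher with SB431542 by 0.68 on the log2 scale, that of Pfkm to Pfkl by 0.58 and that of Hk1 to Hk2 by 0.24. For each of these 4 ratios the SB431542 arrays all lay above the DMSO arrays, and the exact permutation test (two-sided, 3 arrays against 3) gave p = 0.1 for each, the smallest this design allows, and 0.1 after Benjamini-Hochberg adjustment over the 4. The pairs were chosen after the values were seen, so the p-values and their adjustment cannot count as support for a shift. A ratio shows unequal change of the 2 forms, not that 1 of them stayed level.

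The promoter windows of 3 of these enzyme genes are shown for comparison with those above, since Ldha holds more ACGTG matches than any other member with a window, Ldhb holds a single GCGTG and Eno2 is the 1 member that rose with neither core in these 250 bases.
Ldha (chr7:46845554-46845803, plus strand): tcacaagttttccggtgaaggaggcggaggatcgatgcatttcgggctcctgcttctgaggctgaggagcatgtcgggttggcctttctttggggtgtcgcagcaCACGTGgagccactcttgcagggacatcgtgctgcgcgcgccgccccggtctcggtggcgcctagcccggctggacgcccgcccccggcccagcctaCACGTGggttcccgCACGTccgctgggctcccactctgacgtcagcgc
Ldhb (chr6:142507958-142508207, minus strand): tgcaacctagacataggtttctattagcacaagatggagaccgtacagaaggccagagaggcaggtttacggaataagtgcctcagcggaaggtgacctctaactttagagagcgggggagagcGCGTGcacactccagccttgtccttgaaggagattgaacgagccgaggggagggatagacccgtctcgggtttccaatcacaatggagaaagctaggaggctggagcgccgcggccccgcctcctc
Eno2 (chr6:124769674-124769923, minus strand): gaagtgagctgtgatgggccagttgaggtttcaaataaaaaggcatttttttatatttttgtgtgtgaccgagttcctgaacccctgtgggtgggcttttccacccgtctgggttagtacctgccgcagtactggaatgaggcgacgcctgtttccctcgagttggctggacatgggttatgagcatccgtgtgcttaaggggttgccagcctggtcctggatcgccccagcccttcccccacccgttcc

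Eno2, the neuronal form of enolase, rose by 0.47 on the log2 scale (SE 0.05, adjusted p = 0.00479). Its signal was -1.44, -1.53 and -1.47 with DMSO and -1.04, -0.96 and -1.02 with SB431542, far apart beside a spread of 0.05 (SD) in each group. Eno1, the ubiquitous form, read 8.14, 8.21 and 8.26 against 7.978, 7.997 and 8.023. All its SB431542 arrays were lower, yet the change of -0.20 ± 0.06 did not pass (adjusted p = 0.0681). Pdk1 encodes a kinase that switches off pyruvate dehydrogenase and so holds pyruvate back from the mitochondria. It read 4.09, 4.10 and 4.09 with DMSO and 4.57, 4.42 and 4.53 with SB431542. The rise was 0.41 ± 0.06 (adjusted p = 0.00885). Pdk1 is a known HIF target, and a part of HIF in the members' changes was not tested. Pdk3, a related kinase gene, changed by 0.04 ± 0.07. Pfkm, the muscle-type phosphofructokinase subunit, read 3.09, 3.06 and 3.06 with DMSO and 3.28, 3.36 and 3.24 with SB431542. Its adjusted p of 0.049999 lay at the threshold, and leaving out any array other than SB431542 replicate 3 took it to between 0.0997 and 0.166.

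Glucose uptake genes showed little. Slc2a1, the ubiquitous glucose transporter and a classical HIF target, read 6.65, 6.63 and 6.59 with DMSO and 6.68, 6.58 and 6.52 with SB431542. The groups overlapped, and the change of -0.03 had a 95% interval of -0.18 to 0.12. Slc2a3, the high-affinity transporter, read 6.11, 6.23 and 6.29 against 6.09, 6.24 and 5.97, with a change of -0.11 ± 0.09 and an interval of -0.33 to 0.11. Hexokinase traps glucose in the cell as its phosphate. Hk2, the HIF-inducible form, read 3.45, 3.56 and 3.35 against 3.43, 3.45 and 3.52. Its change of 0.01 ± 0.07 had an interval of -0.16 to 0.19, and the groups overlapped. Hk1, the constitutive form, read 3.69, 3.85 and 3.68 with DMSO and 4.002, 3.886 and 4.097 with SB431542. All 3 were higher, by 0.26 ± 0.08, but the adjusted p was 0.101, and its dimmer second probe changed by 0.45 ± 0.13 without passing.

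Most members of the remaining hexose and triose steps had changes below 0 that did not pass the test. Aldoa, the main aldolase, read 9.01, 9.21 and 9.16 with DMSO and 8.94, 8.99 and 8.72 with SB431542. The lowest was the array on slide 2, and the change was -0.24 ± 0.09 (adjusted p = 0.165). Pfkp, the platelet-type phosphofructokinase subunit, read 2.54, 2.61 and 2.54 against 2.26, 2.41 and 2.47, a change of -0.19 ± 0.07 (adjusted p = 0.157). Tpi1, triose phosphate isomerase, changed by -0.23 ± 0.06 (adjusted p = 0.0602), Gpi1, which interconverts the hexose phosphates, by -0.12 ± 0.05 and Aldoc by -0.08 ± 0.07. Gapdh, often used as a reference gene, read 9.31, 9.37 and 9.30 against 9.24, 9.33 and 9.17, a change of -0.08 ± 0.06 (adjusted p = 0.453). All 7 Gapdh probes changed by between -0.13 and -0.07 and 0 passed limma's test on its own, with 0 at an unadjusted p under 0.05. Pkm, the pyruvate kinase of most proliferating cells, read 6.46, 6.56 and 6.55 against 6.25, 6.45 and 6.53, a change of -0.11 ± 0.09, and Pgam1, a mutase, changed by -0.07 ± 0.06. The bifunctional enzymes that set the level of the phosphofructokinase activator gave -0.04 ± 0.07 for Pfkfb3 and 0.24 ± 0.07 for Pfkfb4 (adjusted p = 0.0776). Of the 10 members of the hexose steps 1 fell and 1 rose, and the same held for the 7 of the triose steps, beside the 7.38% and 5.19% of all features.

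The HIF subunits themselves did not pass the test. Hif1a, the broadly expressed alpha subunit, read 1.85, 1.67 and 1.63 with DMSO and 2.00, 1.74 and 2.01 with SB431542. The groups overlapped, with a change of 0.20 ± 0.10 and an interval of -0.05 to 0.45. Epas1, which encodes the alpha subunit HIF2A, read 4.51, 4.39 and 4.29 against 4.30, 4.32 and 4.10, a change of -0.16 ± 0.09 (adjusted p = 0.312). Its 3 probes did not share a sign, with changes from -0.16 to 0.03. Egln1, the main prolyl hydroxylase in normal oxygen, read -2.35, -2.66 and -2.43 against -2.52, -2.59 and -2.62, a change of -0.09 ± 0.09 with an interval of -0.32 to 0.14.

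Among the hypoxia-inducible effectors, Car9 and Bnip3 stood apart from the rest. Of the 11 tested, 2 fell (Car9 and Bnip3) and 0 rose by limma, with 5 downward and 1 upward at an unadjusted p under 0.05, beside the 7.38%, 5.19%, 14.0% and 13.6% of all features on the same counts. Their median change was -0.14. Vegfa, the angiogenic growth factor, read 1.52, 1.58 and 1.59 with DMSO and 1.48, 1.48 and 1.30 with SB431542. The groups did not overlap, but the change of -0.14 ± 0.07 did not pass (adjusted p = 0.253). Bhlhe40, a repressor of the basic helix-loop-helix family, read 1.14, 1.32 and 1.19 against 0.84, 0.97 and 1.08, a change of -0.25 ± 0.08 (adjusted p = 0.114). Ndrg1, a stress-responsive gene, read 2.77, 2.92 and 2.86 against 2.77, 2.95 and 2.93, with overlapping groups and a change of 0.04 ± 0.07. Higd1a, a mitochondrial protein gene, changed by -0.17 ± 0.06 (adjusted p = 0.117), Ankrd37 by -0.13 ± 0.07, the vasodilator peptide gene Adm by -0.12 ± 0.08 and the carbonic anhydrase gene Car12 by -0.04 ± 0.07. The histone demethylase gene Kdm3a read higher by 0.18 ± 0.05 (adjusted p = 0.0903). The brightest probe of Bnip3l, a relative of Bnip3, changed by -0.18 ± 0.05 (adjusted p = 0.0954). Its 4 probes disagreed, with changes from -0.18 to 0.17 and 0 past limma's test (1 at an unadjusted p under 0.05).

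**Figure D3:**
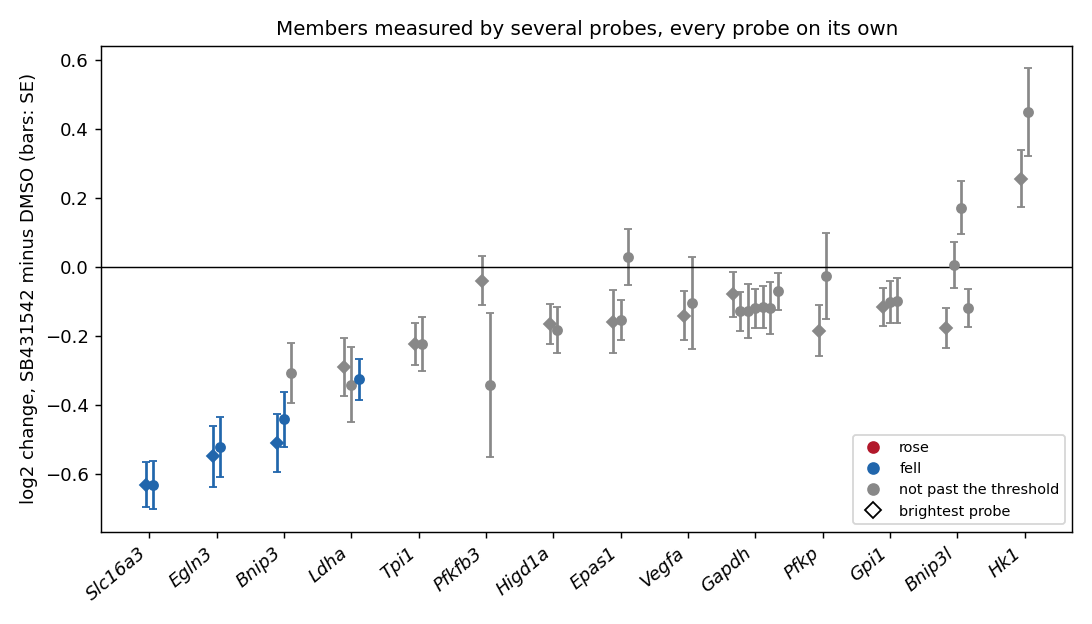
Log2 change with its standard error (y axis) for every tested probe of the 14 members measured by more than 1 probe, each probe tested on its own, with a diamond for the brightest. The probes of Slc16a3, Egln3, Bnip3, Ldha and Gapdh lie on 1 side of 0, whereas those of Bnip3l and Epas1 lie on both.

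Other genes of the same pathways were taken from lists that do not overlap the members. Of 36 tested hypoxia-inducible genes outside the members, 9 fell and 3 rose (25.0% and 8.33%, beside 7.38% and 5.19% of all features), with a median of -0.14. Those that fell included Stc2, a secreted glycoprotein gene (-1.15 ± 0.08, adjusted p = 0.000998), and Gys1, glycogen synthase (-0.53 ± 0.08, adjusted p = 0.0114). Ak4, a mitochondrial adenylate kinase gene, rose (0.52 ± 0.08, adjusted p = 0.0127). Of 19 oxygen sensing and HIF regulators, 2 fell (10.5%) and 0 rose by limma, beside the same shares of all features. Upward, 3 had an unadjusted p under 0.05 (15.8%, beside 13.6% of all features). Those that fell were the ubiquitin ligase gene Siah2, which acts on prolyl hydroxylases (-0.37 ± 0.05, adjusted p = 0.0111), and the deubiquitinase gene Usp20 (-0.29 ± 0.06, adjusted p = 0.0368).

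Of 23 other glycolytic and lactate genes, 2 rose and 1 fell, with a median of 0.09. The 13.0% called is close to the 12.6% of all features. Ldhd, a mitochondrial dehydrogenase of the D form of lactate, rose by 0.76 ± 0.12 (adjusted p = 0.0113), and Fbp1, the gluconeogenic fructose bisphosphatase, by 0.44 ± 0.09 (adjusted p = 0.0277). Tigar, a p53-inducible phosphatase that lowers phosphofructokinase activity, fell by 0.77 on the log2 scale (SE 0.07, adjusted p = 0.00222). The members' median of -0.11 thus lay beside -0.14 for the other hypoxia-inducible genes and 0.09 for the other glycolytic genes, a description with no test between the lists. The members mix both kinds of gene. Among them, the 21 glycolytic enzymes and their regulators had a median of -0.08 and the 11 hypoxia-inducible effectors -0.14.

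**Figure D4:**
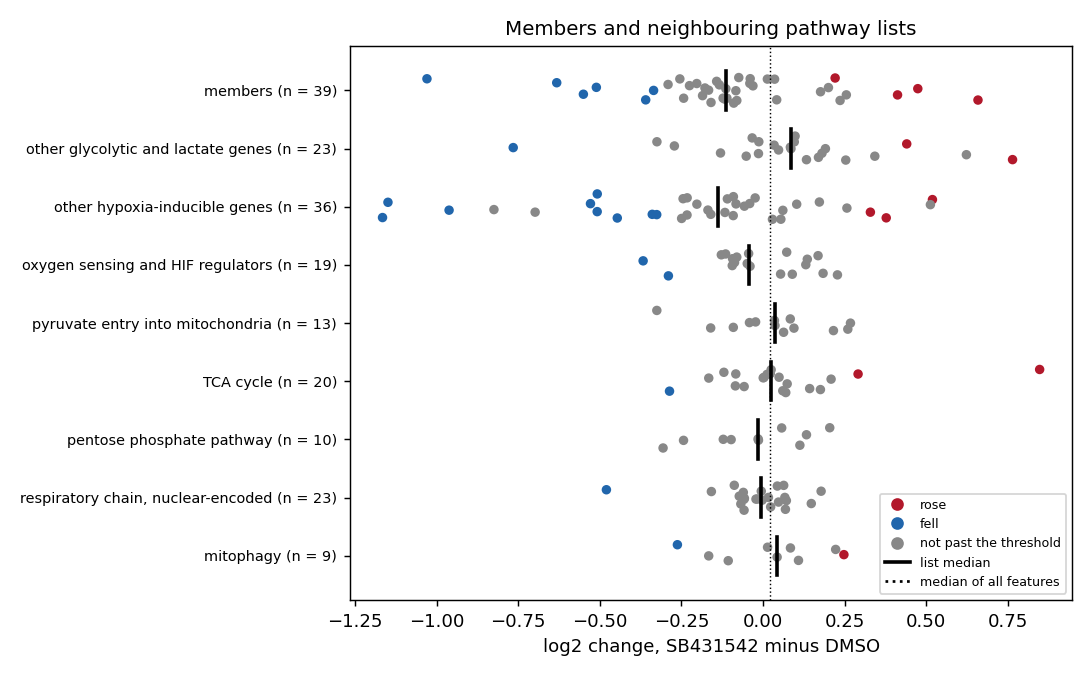
Log2 change (x axis) of each tested gene of the members and of 8 neighbouring pathway lists, with blue for genes that fell, red for genes that rose, a black bar at each list median and a dotted line at the median of all features (0.02). The members and the other hypoxia-inducible genes have medians of -0.11 and -0.14, and the other lists lie between -0.04 and 0.09.

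Among the SB431542 arrays, replicate 3 was the lowest of all 6 arrays for 13 of the 39 members, replicate 1 for 11 and replicate 2 for 3. The median deviation of the members from their DMSO means was -0.13, -0.06 and -0.13 on SB431542 replicates 1, 2 and 3, and between -0.03 and 0.02 on the DMSO arrays. The 6 members that fell had medians of -0.57, -0.50 and -0.50 on these 3 arrays, and the 4 that rose 0.46, 0.43 and 0.45. These genes were picked by their change on the same arrays, so the likeness of the arrays is partly built in. The median SD of a member was 0.06 under DMSO and 0.08 under SB431542, against 0.07 and 0.12 over all features. Without SB431542 replicate 3, which leaves slide 1 alone, 5 members fell and 4 rose, beside 1675 and 1235 of the 25899 features.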

How the data were processed

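RNA of J1 cells was measured on 6 Agilent 1-colour arrays (Cy3). The deposited intensity values per spot were background-subtracted and detrended within each array by Agilent Feature Extraction 10.7, per the file headers and the submitters' processing notes. Flags for outlier, saturated and well-above-background spots are a score of 0 or 1, per the file headers. A further table holds log2 values of the same arrays deposited by the authors. Each column had a median of 5.18 or 5.19 and correlated at 0.99988 or above with its own array, and the sources used here do not state its normalization. It served as an alternative.

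Of 55681 probes, 81 with a flagged spot and no other were left out, and spots of a probe were averaged. From log2 of the processed signal, the 75th percentile of the array was subtracted. A probe was kept if 3 or more of the 6 arrays showed it well above background (36184 probes). RefSeq accessions, without version, named 27200 probes through a gene table of GRCm38.p6, symbols in the files named 13 others, and 28387 had no name. The array grid uses another build, so coordinates are given only for RefSeq promoters. The design had foreseen the mean spot signal for normexp, and the median spot signal was used with an offset of 50. limma 3.58.1 in R 4.3.3 tested SB431542 against DMSO (two-sided), p-values were adjusted by Benjamini-Hochberg across the 25899 features, and Python 3.11.15 read the files. The steps were tested on simulated data.

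Every member was to be named, with each array for those past the threshold and for 22 fixed by name, and up to 4 genes of each neighbouring list, those with the smallest adjusted p. A gene that this rule names is not reported here. Members and lists were chosen with earlier results of these data known. Alternatives were background correction, scaling, filter, probe summary, slide, replicate block, variance trend, threshold and leaving out each array.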

Additional observations from a re-analysis of the deposited data

How the results depend on the processing

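The number of arrays limits the precision. Calls of Pfkl, Pgk1, Pfkm, Egln3 and Bnip3 were lost when some single arrays were left out, while those of Car9, Slc16a3, Ldhb, Eno2 and Pdk1 passed with any 1 array left out. The size of the change alone did not separate them, since Egln3 (-0.55) and Bnip3 (-0.51) lost calls and Pdk1 (0.41) did not. The count of features changed (3257) was 2098 with no filter on dim probes, 1567 with the replicate block, 4126 with a variance trend, 1222 at an adjusted p under 0.01, and 1467 to 2910 when leaving out an array. Members that fell (6) numbered 3 with the replicate block, 11 with a variance trend, 2 at an adjusted p under 0.01 and 2 to 5 when leaving out an array. Members that rose (4) numbered 2 with the replicate block. Deviations of same-numbered arrays correlated at 0.00172, 0.0716 and -0.0578, and those of differently numbered arrays at -0.0781 to 0.0748. No shared effect of the replicate number was seen, which cannot show whether the cultures were paired. The median member change ran from -0.14 to -0.08 over all settings. Changes near 0 turned sign for Slc2a1 (0.0425 under normexp, 0.00506 with slide as a block) and Hk2 (-0.00588 under normexp, -0.00993 with the percentile over probes detected on all arrays, -0.0130 with slide as a block). When leaving out an array they ran from -0.0718 to 0.00506 for Slc2a1, -0.0373 to 0.0681 for Hk2, -0.0833 to 0.00407 for Pfkfb3, -0.0158 to 0.0880 for Pdk3 and -0.00575 to 0.0905 for Ndrg1. The scan gives the same fit as the slide. The promoter count was 26 also for the 250 bases before the start alone.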

Other observations

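Of 13 genes of pyruvate entry into mitochondria, 0 passed limma's test (2 with an unadjusted p under 0.05), and of 10 genes of the pentose phosphate pathway, 0 passed (2 unadjusted). Of all features 12.6% passed, and without adjustment 13.6% had a p under 0.05 upward and 14.0% downward. A count of 0 in lists of this size therefore says little. The list for the TCA cycle held 20 genes, among them cytosolic forms of its enzymes (Idh1, Aco1 and Mdh1). Of the 20, 2 rose, both cytosolic forms, and 1 fell (10% and 5%, beside 5.19% and 7.38% of all features). Idh1 (0.29 ± 0.05, adjusted p = 0.0179) and Aco1 (0.85 ± 0.20, adjusted p = 0.0451), which rose, encode the cytosolic forms of isocitrate dehydrogenase and aconitase, and Idh3a (-0.29 ± 0.06, adjusted p = 0.0326), which fell, a subunit of the mitochondrial NAD-dependent enzyme.

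The list for the nuclear-encoded respiratory chain also held regulators, namely Esrra, Nrf1, Ppargc1b and Tfam. Of its 23 tested genes, 1 fell and 0 rose by limma, beside 7.38% and 5.19% of all features. Upward, 1 had an unadjusted p under 0.05, beside 13.6% of all features. The gene that fell was Ndufa4l2, a HIF-inducible relative of a respiratory chain subunit, at -0.48 ± 0.08 (adjusted p = 0.0164). Of 9 mitophagy genes, 1 fell and 1 rose (11.1% each, beside the same 7.38% and 5.19% of all features). The autophagy modifier gene Gabarapl1 fell (-0.26 ± 0.06, adjusted p = 0.0331) and the kinase gene Ulk1 rose (0.25 ± 0.05, adjusted p = 0.0360).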
